A study of Homo sapiens with 4 samples.

Results

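The genes described here are 40 DNA replication genes, covering origin licensing, the replicative helicase, the polymerases, the sliding clamp and its loader, fork protection and nucleotide supply. They were chosen by name from textbook roles, but earlier results of these data were known at the time, so the choice was not blind. Some subunits of the same complexes lie outside the 40 and are given further below. All 40 were found among the 58812 Ensembl genes of the count files. Total RNA, depleted of ribosomal RNA, was sequenced from A549 cells, an epithelial lung carcinoma line, 24 hr after transfection with 1 µg of plasmid. The SAMD9 group carried a plasmid for SAMD9 with a Myc-DDK tag (n = 2 libraries) and the empty vector group carried pCMV6-Entry (n = 2 libraries), so all 4 libraries came from wild type cells that had been transfected. SAMD9 is an interferon-inducible antiviral protein, and the comparison asks how its overexpression alters transcript levels. The share of cells that took up plasmid is not given, and in bulk RNA fewer cells in S phase and less RNA per cell cannot be told apart.

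In the G1 phase of the cell cycle, the origin recognition complex (ORC), CDC6 and CDT1 load the MCM2 to MCM7 ring onto origins, a step called licensing. Geminin (GMNN) blocks CDT1 after S phase begins, so that no origin is licensed again in the same cycle. CDC45 and the GINS complex then turn the loaded ring into an active helicase, DNA polymerase alpha and its primase start each strand, and polymerases delta and epsilon extend the strands, held by the PCNA clamp that replication factor C (RFC) loads. Many of these genes are targets of E2F transcription factors and are transcribed as cells enter S phase.

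SAMD9 transcripts reached 5903 and 6439 CPM in the SAMD9 libraries, against 14.2 and 12.0 CPM in the empty vector libraries, in the direction the labels give, although counts do not separate plasmid from endogenous transcripts. CPM here are library-size normalised counts (CPM) after scaling by TMM (trimmed mean of M values, which equalises the bulk of genes between libraries). Library totals were 39670083 and 30750029 counts with SAMD9 and 29301854 and 31434339 with empty vector. The 8 epithelial markers summed to 12450 and 12156 CPM with SAMD9 and 11767 and 12611 CPM with empty vector (unscaled). Of the 7 that could be tested, 3 rose: CDH1 (log2 fold change 0.89), KRT8 (0.40) and ALDH1A1 (0.14). KRT18 (0.14), AKR1B10 (-0.05), AKR1C1 (-0.14) and EPCAM (-0.20) were not called. Under scaling by library totals instead of TMM, CDH1 (0.70) and KRT8 (0.21) stayed higher. ALDH1A1 stood at -0.048 there and was not called, and AKR1C1 (-0.33) and AKR1B10 (-0.24) were called lower. KRT19 had 8 and 5 counts with SAMD9 and 10 and 8 with empty vector. The 6 leukocyte markers summed to 6.45 and 6.21 CPM with SAMD9 and 6.89 and 6.52 CPM with empty vector. Most of these counts came from ITGAM (142 and 122 with SAMD9, 90 and 118 with empty vector) and CD14 (99 and 60, against 88 and 67). The 5 endothelial markers summed to at most 0.748 CPM in any library. PTPRC, the defining leukocyte gene, had 0 and 3 counts with SAMD9 and 0 and 0 with empty vector. The 6 fibroblast markers summed to 5.95 and 5.95 CPM with SAMD9 and 1.91 and 3.02 CPM with empty vector, mostly COL1A1, with DCN at 0 counts in every library. The part of any of these markers in the results was not tested.

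With SAMD9, 16 of the 40 replication genes rose and 1, PRIM1, fell, while 23 did not pass the test. The rises were small: the log2 fold change of the 16 lay between 0.19 and 0.76. A gene was called at an adjusted p below 0.05 (edgeR quasi-likelihood test, Benjamini-Hochberg over all 19814 genes tested), and by that rule 15.3% of all tested genes were higher and 12.2% lower. Among the 9244 tested genes in the same range of average expression, 21.4% were higher and 18.8% lower. The median log2 fold change of the 40 genes was 0.13, against -0.01 over all tested genes. Values of the groups did not overlap for 20 replication genes that were higher with SAMD9 and for 5 that were lower, against 31.1% and 30.9% of all tested genes.

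The calls and the size of the differences depended on the scaling and on single libraries. Under scaling by total counts, under which the median log2 fold change of all genes was -0.19, 5 replication genes were higher (against 9.96% of all genes) and 10 were lower (against 28.5%), with a median of -0.058. All 16 rises kept a positive sign there, but this scaling moved genes by a median of -0.188, and the smallest rise was 0.191 (LIG1). The kept signs thus follow from the size of the shift and are no separate support. LIG1 was left at 0.0027, MCM5 at 0.0088 and MCM7 at 0.0099. Only ORC6, ORC1, GINS1, PCNA and CLSPN kept their call. These 5 genes were called higher under every alternative tried. Sequence shared with other annotated genes, as the percentage of a gene's 31-base words also found elsewhere in the transcripts, was highest for TYMS (43.0%), POLA2 (37.7%) and GINS4 (29.97%). Of the 5 genes, ORC6 shared 15.8%, CLSPN 7.69%, GINS1 5.39%, PCNA 3.4% and ORC1 1.58%. PRIM1, the gene that fell, shared 20.55%. How reads from shared sequence were assigned is not known. The median log2 fold change of the 40 genes was 0.15 without SAMD9 replicate 1 and 0.12 without SAMD9 replicate 2. It was 0.039 without empty vector replicate 1 and 0.23 without empty vector replicate 2. The median over all tested genes stayed between -0.013 and 0.012 in these fits. Empty vector replicate 1 was below replicate 2 for 35 of the 40 genes, against 49.7% of all tested genes, and SAMD9 replicate 1 was below replicate 2 for 28 of the 40, against 49.96%. Most replication genes thus differed in the same direction between replicates of a group. As a share of all counts, which amounts to total-count scaling, the 40 genes together took 0.381% and 0.390% with SAMD9 and 0.374% and 0.410% with empty vector, and the groups overlapped.

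**Figure D1:**
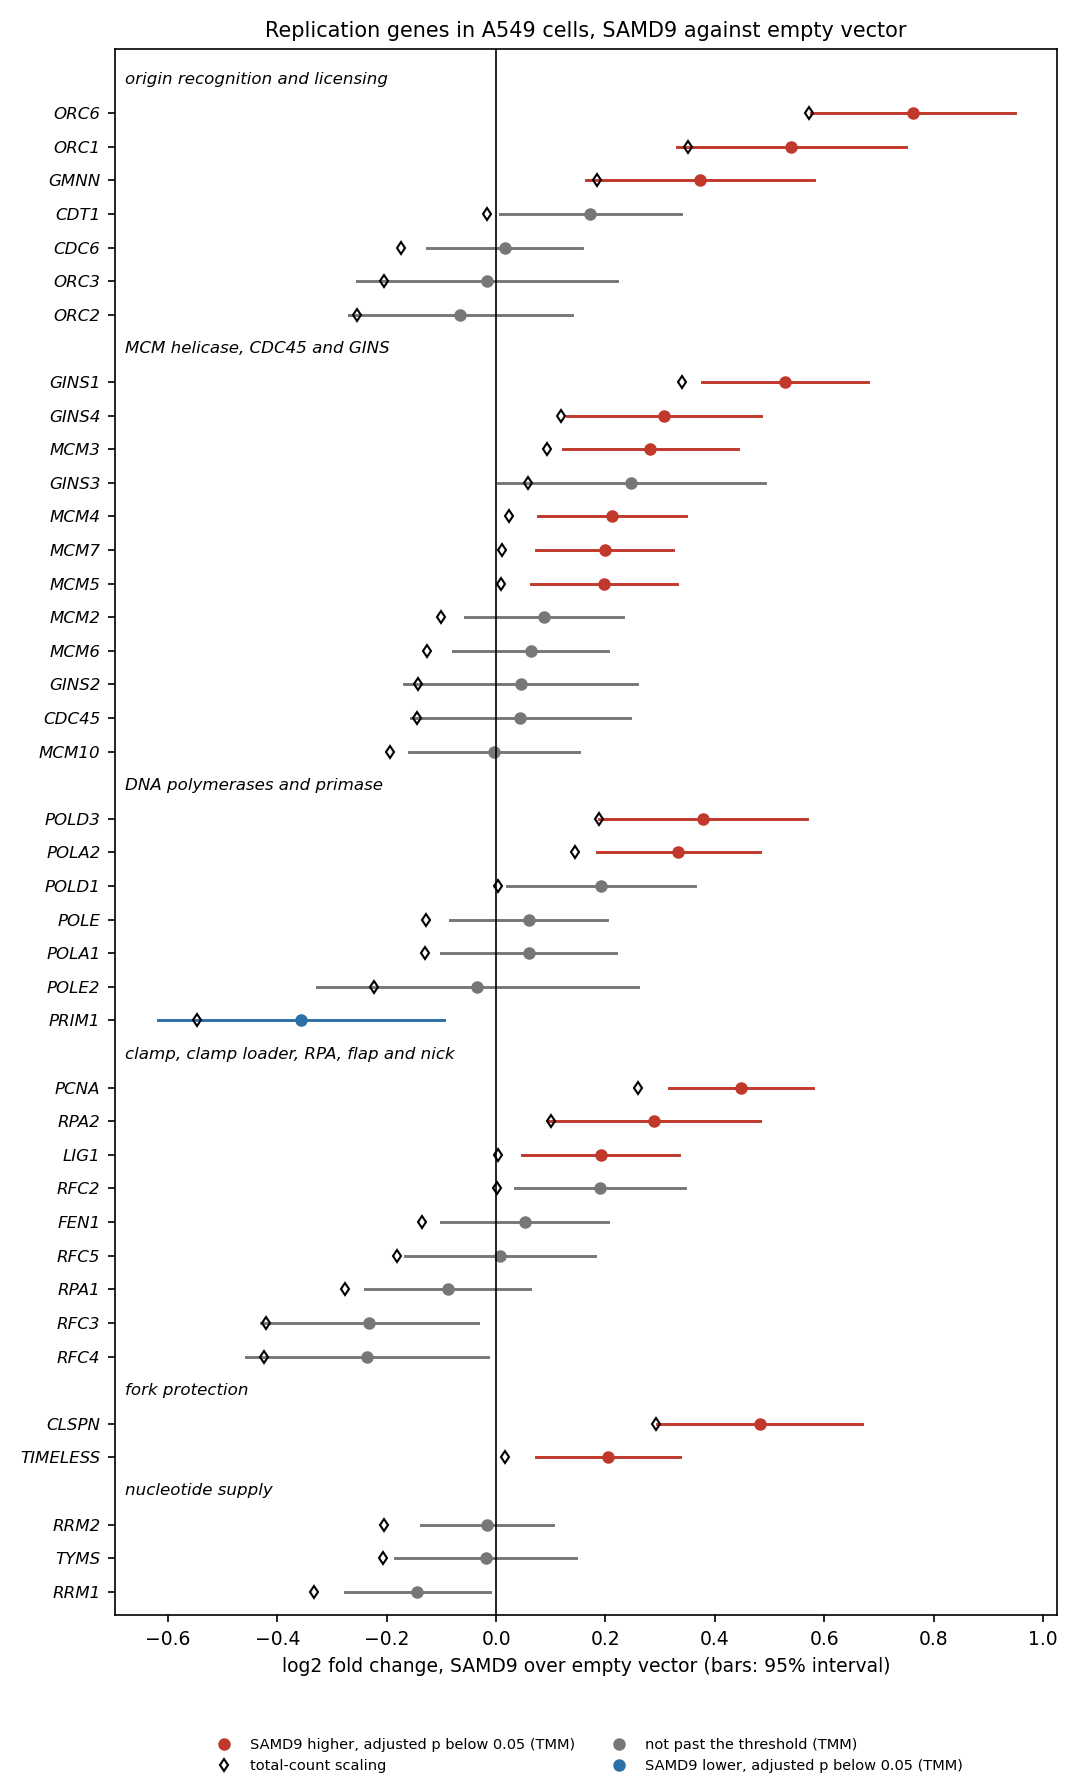
Log2 fold change of each of the 40 replication genes, SAMD9 over empty vector (x axis), with 95% intervals from edgeR as bars, grouped by role. Filled points use TMM scaling and are red where called higher, blue where called lower and grey otherwise, and open diamonds show total-count scaling, which lies about 0.19 to the left for every gene. ORC6 is farthest to the right at 0.76 and PRIM1 farthest to the left at -0.36.

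**Figure D2:**
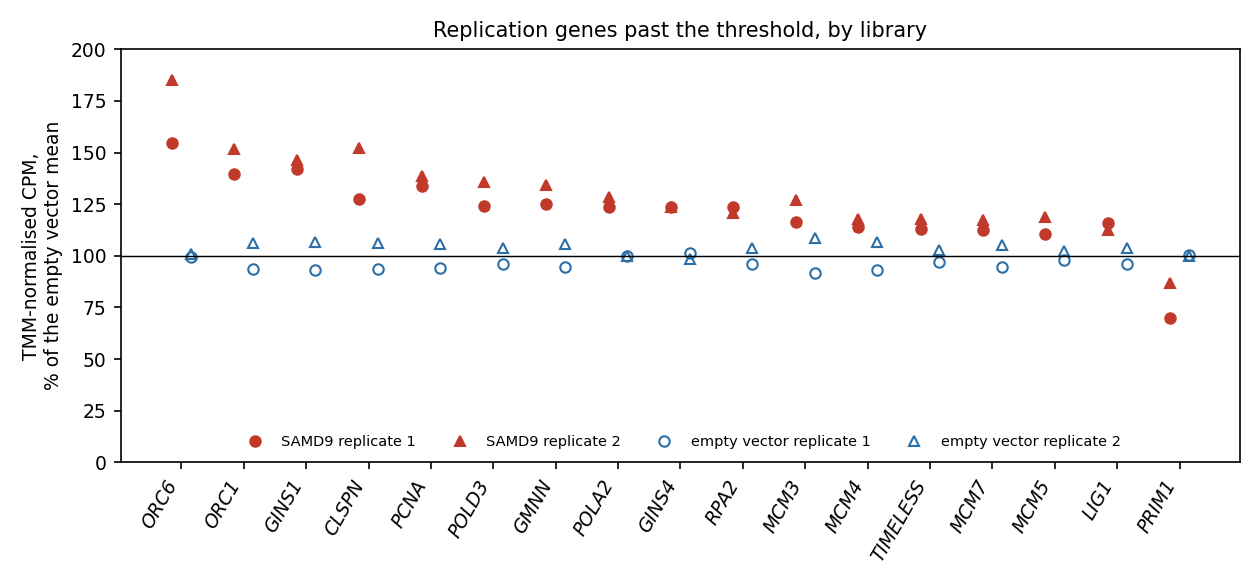
TMM-normalised CPM of the 17 called replication genes in each library, as a percentage of the mean of the 2 empty vector libraries (y axis, starting at 0). Both SAMD9 libraries (red) lie above both empty vector libraries (blue, open) for 16 genes and below them for PRIM1. For MCM3, MCM4 and MCM7 the empty vector replicates are farther apart than the groups, and for MCM3, CLSPN and PRIM1 the SAMD9 replicates are.

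Promoter sequence was examined because E2F sites are known in many of these genes. RefSeq promoter windows (GRCh38.p14, 250 bases before to 50 after the annotated start) were found for 35 of the 40 genes, and not for GINS4, MCM4, MCM5, POLD3 and RPA2. An E2F motif (TTTCCCGC, TTTCGCGC, TTTGCCGC or TTTGGCGC on either strand, where matches on opposite strands may overlap) was present in 19 of 35 windows, against 3.33% of all 27305 windows of this length. It was present in 7 of the 11 windows of genes called higher and in 12 of the 23 windows of genes not called, so the motif was found in called and uncalled genes alike. The CCAAT box (CCAAT, either strand), a frequent partner motif of cell cycle promoters, was in 22 of 35 windows, against 35.7% of all. The cell cycle homology region core (TTTGAA or TTCGAA, either strand) was in 2 of 35 windows, against 16.6% of all, and the interferon-stimulated response element (GAAA, any 2 bases, GAAA, either strand) in 1 window, of ORC2, against 3.65% of all.

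The windows of the 5 genes called under every setting, of PRIM1, the gene that fell, and of MCM6, which held the most E2F matches and was not called, are printed 5′ to 3′ on the gene's strand, with E2F matches in capitals. They lie at chr1:52404374-52404673 (ORC1, minus strand), chr16:46689409-46689708 (ORC6, plus strand), chr20:25407423-25407722 (GINS1, plus strand), chr20:5126573-5126872 (PCNA, minus strand), chr1:35769929-35770228 (CLSPN, minus strand), chr12:56752274-56752573 (PRIM1, minus strand) and chr2:135876394-135876693 (MCM6, minus strand).
ORC1: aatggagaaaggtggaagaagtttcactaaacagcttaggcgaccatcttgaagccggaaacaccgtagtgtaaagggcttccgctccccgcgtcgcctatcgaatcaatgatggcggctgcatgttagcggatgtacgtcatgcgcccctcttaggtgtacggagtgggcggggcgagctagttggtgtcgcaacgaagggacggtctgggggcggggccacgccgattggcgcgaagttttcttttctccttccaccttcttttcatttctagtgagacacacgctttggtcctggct
ORC6: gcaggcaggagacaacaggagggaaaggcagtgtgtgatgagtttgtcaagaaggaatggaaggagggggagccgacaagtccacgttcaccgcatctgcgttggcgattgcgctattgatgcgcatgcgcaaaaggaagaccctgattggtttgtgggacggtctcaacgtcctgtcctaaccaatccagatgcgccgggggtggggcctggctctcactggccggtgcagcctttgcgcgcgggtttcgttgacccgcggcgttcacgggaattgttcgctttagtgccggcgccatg
GINS1: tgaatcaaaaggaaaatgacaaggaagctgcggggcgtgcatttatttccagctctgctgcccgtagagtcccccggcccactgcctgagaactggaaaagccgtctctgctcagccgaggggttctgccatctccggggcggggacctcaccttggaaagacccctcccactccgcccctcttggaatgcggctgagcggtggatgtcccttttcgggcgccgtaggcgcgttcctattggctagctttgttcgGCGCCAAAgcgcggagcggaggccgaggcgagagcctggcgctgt
PCNA: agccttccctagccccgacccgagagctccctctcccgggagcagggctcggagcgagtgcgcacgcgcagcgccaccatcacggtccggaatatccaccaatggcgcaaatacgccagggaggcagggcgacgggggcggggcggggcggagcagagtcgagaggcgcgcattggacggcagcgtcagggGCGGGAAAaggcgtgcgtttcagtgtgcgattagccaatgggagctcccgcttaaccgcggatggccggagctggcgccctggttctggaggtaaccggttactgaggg
CLSPN: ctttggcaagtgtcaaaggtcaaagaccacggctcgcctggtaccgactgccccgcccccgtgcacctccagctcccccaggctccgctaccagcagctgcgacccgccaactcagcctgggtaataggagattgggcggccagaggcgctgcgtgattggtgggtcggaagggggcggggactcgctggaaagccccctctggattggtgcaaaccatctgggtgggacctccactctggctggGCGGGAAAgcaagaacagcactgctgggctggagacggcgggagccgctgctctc
PRIM1: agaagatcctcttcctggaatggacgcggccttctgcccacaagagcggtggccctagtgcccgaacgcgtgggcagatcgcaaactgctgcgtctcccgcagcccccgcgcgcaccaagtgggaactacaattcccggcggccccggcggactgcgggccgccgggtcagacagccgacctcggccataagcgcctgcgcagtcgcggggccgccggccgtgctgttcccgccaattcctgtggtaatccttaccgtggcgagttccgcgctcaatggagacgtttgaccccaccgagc
MCM6: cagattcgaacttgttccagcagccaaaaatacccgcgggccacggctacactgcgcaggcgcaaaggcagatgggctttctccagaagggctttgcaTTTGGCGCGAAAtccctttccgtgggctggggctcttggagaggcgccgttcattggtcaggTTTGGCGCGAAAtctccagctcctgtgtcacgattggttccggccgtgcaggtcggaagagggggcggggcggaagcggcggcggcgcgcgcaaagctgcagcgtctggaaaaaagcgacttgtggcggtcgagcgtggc
GINS1, PCNA and CLSPN each held 1 match, with its first base at position 6, -59 and -5 relative to the annotated start. ORC1, ORC6 and PRIM1 held none of these letters in this window. MCM6 held 4 matches, as 2 runs in which matches on opposite strands overlap.

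Of the 7 licensing genes, 3 rose: ORC6, ORC1 and GMNN. ORC6 (ENSG00000091651, chromosome 16, 46689643 to 46698394, plus strand, GRCh38) encodes the smallest ORC subunit, which binds DNA and takes part in loading the MCM ring. It had 58.6 and 70.1 CPM in SAMD9 libraries, against 37.6 and 38.2 CPM in empty vector libraries. Its log2 fold change was 0.76 (SE 0.09, edgeR adjusted p = 5.8e-07), the highest of the 40 genes, and both SAMD9 libraries were above both empty vector libraries. ORC1 (ENSG00000085840, chromosome 1, 52372829 to 52404459, minus strand), the ATPase subunit whose protein is degraded in S phase in human cells, had 34.3 and 37.4 CPM with SAMD9 and 23.1 and 26.1 CPM with empty vector (log2 fold change 0.54, SE 0.10, edgeR adjusted p = 0.00025). GMNN, which encodes the inhibitor geminin, had 31.8 and 34.2 CPM with SAMD9 and 24.0 and 26.9 CPM with empty vector (0.37, SE 0.10, edgeR adjusted p = 0.0072). The GMNN call ended without SAMD9 replicate 2 (adjusted p = 0.093) and under total-count scaling (0.16).

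The core ORC subunits ORC2 and ORC3 were not called: ORC2 stood at -0.07 (SE 0.10, 95% interval -0.27 to 0.14) and ORC3 at -0.02 (SE 0.11, -0.25 to 0.22). CDC6, the ATPase that joins ORC to recruit the MCM ring, had 91.1 and 91.8 CPM with SAMD9 and 91.6 and 89.3 CPM with empty vector, a log2 fold change of 0.02 (SE 0.07, 95% interval -0.13 to 0.16). Under total-count scaling both ORC2 (-0.25, adjusted p = 0.046) and CDC6 (-0.17, adjusted p = 0.049) were called lower, with the sign of CDC6 turned. CDT1, the MCM loader that geminin inhibits, had the highest level per kilobase of the licensing genes, and its 105.7 and 103.1 CPM with SAMD9 were above the 83.7 and 101.6 CPM with empty vector, though it was not called (0.17, SE 0.08, adjusted p = 0.12). Without empty vector replicate 2, CDT1 was called at 0.32 (adjusted p = 0.0002). The ratio of CDT1 to GMNN counts per kilobase within a library, on which scaling has no effect, was 2.35 ± 0.163 with SAMD9 and 2.70 ± 0.156 with empty vector (SD, n = 2). The groups did not overlap, but the gap between them was smaller than the gap between replicates of either group. The ratios and shares within a library are given as values only, since an exact two-sided permutation test of 2 libraries against 2 cannot give a p below 0.333, and no other test of them was run.

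Of the 12 helicase genes, 6 rose and none fell: GINS1, GINS4, MCM3, MCM4, MCM5 and MCM7. GINS1 (ENSG00000101003, chromosome 20, 25407727 to 25452628, plus strand), which encodes the PSF1 subunit of the GINS complex, had 122.1 and 125.7 CPM in SAMD9 libraries, against 79.97 and 91.8 CPM in empty vector libraries. Its log2 fold change was 0.53 (SE 0.07, edgeR adjusted p = 6.1e-06), and SAMD9 libraries were above both empty vector libraries. GINS4, encoding the SLD5 subunit, had 44.6 and 44.5 CPM with SAMD9 and 36.6 and 35.5 CPM with empty vector (0.31, SE 0.09, edgeR adjusted p = 0.0091). The GINS4 call ended under total-count scaling (adjusted p = 0.31) and without SAMD9 replicate 1 (0.071) or 2 (0.066). GINS4 exons share 1159 bases with an unnamed gene on the opposite strand that had 9 and 6 counts with SAMD9 and 4 and 4 with empty vector.

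The remaining GINS subunits were not called: GINS2 (PSF2) had a log2 fold change of 0.04 (SE 0.10, 95% interval -0.17 to 0.26) and GINS3 (PSF3) one of 0.25 (SE 0.12, 0.00 to 0.49), the groups overlapping for GINS2 and not for GINS3. The GINS complex holds 1 copy of each subunit, yet its 4 transcripts differed in level: GINS1 made up 56.2% ± 0.0745 of the summed counts per kilobase with SAMD9 and 49.9% ± 0.332 with empty vector (SD, n = 2). GINS2 made up 21.5% ± 0.134 with SAMD9 and 26.6% ± 2.15 with empty vector. The GINS1 share was higher and the GINS2 share lower in both SAMD9 libraries than in both empty vector libraries, and scaling has no effect on these shares. GINS3 took 7.30% ± 0.563 with SAMD9 and 7.91% ± 0.729 with empty vector, and GINS4 took 15.02% ± 0.355 and 15.6% ± 1.75 (SD, n = 2), with overlapping groups for each.

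**Figure D3:**
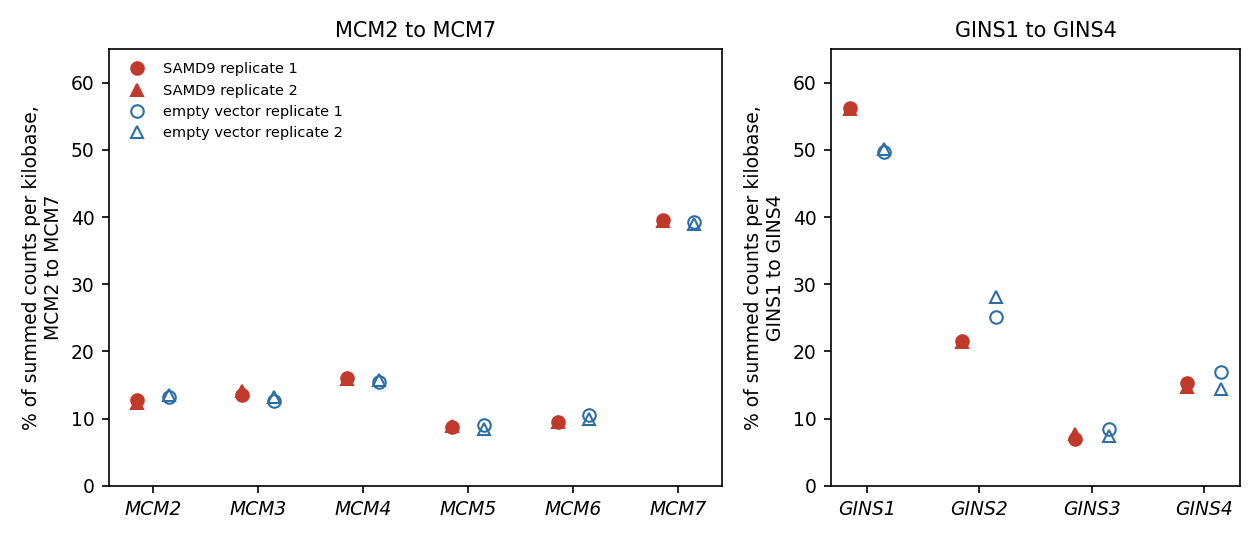
Share of each gene in the summed counts per kilobase of its complex (y axis, percent, starting at 0) for MCM2 to MCM7 (left) and GINS1 to GINS4 (right), with SAMD9 libraries in red and empty vector libraries in blue. GINS1 stands at about 56.2% with SAMD9 and 49.9% with empty vector, whereas the MCM shares differ by less than 1 percentage point between group means.

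The 6 genes of the MCM ring, the motor of the replicative helicase, all had positive log2 fold changes, and 4 of them rose under TMM scaling. MCM3 had 127.7 and 139.7 CPM with SAMD9 and 100.7 and 119.1 CPM with empty vector (log2 fold change 0.28, SE 0.08, edgeR adjusted p = 0.008). MCM4 had 283.3 and 292.7 CPM with SAMD9 and 231.8 and 265.3 CPM with empty vector (0.21, SE 0.07, edgeR adjusted p = 0.017). MCM7, the most abundant MCM transcript per kilobase, had 449.7 and 468.2 CPM with SAMD9 and 378.5 and 421.2 CPM with empty vector (0.20, SE 0.06, edgeR adjusted p = 0.016). In each case the SAMD9 libraries lay above both empty vector libraries, but for MCM3, MCM4 and MCM7 the gap between groups was smaller than the gap between the empty vector libraries. MCM5 had 164.7 and 176.6 CPM with SAMD9 and 145.6 and 151.9 CPM with empty vector (0.20, SE 0.06, edgeR adjusted p = 0.024).

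These 4 MCM calls ended under total-count scaling, where the log2 fold changes were 0.09 for MCM3, 0.02 for MCM4, 0.01 for MCM5 and 0.01 for MCM7. They also ended without SAMD9 replicate 2 (adjusted p from 0.12 for MCM3 to 0.33 for MCM5), without empty vector replicate 1 for MCM3 (0.069), MCM4 (0.13) and MCM7 (0.069), and without SAMD9 replicate 1 for MCM4 (0.0502) and MCM5 (0.052). MCM2 and MCM6 were not called, at 0.09 (SE 0.07, 95% interval -0.06 to 0.23) and 0.06 (SE 0.07, -0.08 to 0.20), and their signs turned under total-count scaling (-0.10 and -0.13). The MCM proteins act as a ring with 1 copy of each, but MCM7 made up 39.5% ± 0.179 of the summed counts per kilobase with SAMD9 and 39.1% ± 0.153 with empty vector (SD, n = 2). MCM6 took 9.43% ± 0.0263 with SAMD9 and 10.3% ± 0.455 with empty vector, and MCM3 took 13.8% ± 0.424 and 12.9% ± 0.51. MCM2 took 12.5% ± 0.260 and 13.4% ± 0.280, MCM4 15.9% ± 0.157 and 15.6% ± 0.247, and MCM5 8.78% ± 0.146 and 8.72% ± 0.429. Among these shares the groups overlapped only for MCM5. AP4M1 on the opposite strand covers 8.94% of the MCM7 exonic bases, so some of its counts may belong to that gene.

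CDC45, which joins the ring to form the active helicase, had 38.4 and 38.1 CPM with SAMD9 and 33.6 and 40.6 CPM with empty vector (log2 fold change 0.04, SE 0.10, 95% interval -0.16 to 0.25). MCM10, which is needed to start unwinding, had 75.2 and 80.7 CPM with SAMD9 and 74.4 and 81.8 CPM with empty vector (-0.00, SE 0.07, -0.16 to 0.15). For both genes the groups overlapped, and MCM10 was called lower under total-count scaling (-0.19, adjusted p = 0.044).

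The 7 polymerase and primase genes included 2 rises and the only fall. POLD3, an accessory subunit of polymerase delta, had 40.5 and 44.3 CPM with SAMD9 and 31.3 and 33.9 CPM with empty vector (log2 fold change 0.38, SE 0.09, edgeR adjusted p = 0.0031). POLA2, the regulatory subunit of polymerase alpha, had 79.7 and 82.7 CPM with SAMD9 and 64.4 and 64.5 CPM with empty vector (0.33, SE 0.07, edgeR adjusted p = 0.0011). The POLA2 call was lost only under total-count scaling (adjusted p = 0.12), among the 9 alternatives tried, and the POLD3 call there (0.11) and without SAMD9 replicate 2 (0.071).

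PRIM1 (ENSG00000198056, chromosome 12, 56731596 to 56752373, minus strand), the catalytic primase subunit that makes RNA primers, had 13.5 and 16.8 CPM in SAMD9 libraries, against 19.4 and 19.3 CPM in empty vector libraries. Its log2 fold change was -0.36 (SE 0.13, edgeR adjusted p = 0.038), and both SAMD9 libraries were lower than both empty vector libraries. The gap between groups was smaller than the gap between the SAMD9 libraries. The PRIM1 call ended with DESeq2 (adjusted p = 0.15), without SAMD9 replicate 1 (0.46), without empty vector replicate 1 (0.060) and without empty vector replicate 2 (0.053). PRIM1 shares 33 exonic bases with NACA on the same strand, a gene with at least 9534 counts in each library, so counts at its edge are uncertain. POLD1, the catalytic subunit of polymerase delta and the most abundant of these genes per kilobase, had 127.7 and 124.7 CPM with SAMD9 and 97.6 and 123.3 CPM with empty vector, and was not called (0.19, SE 0.08, adjusted p = 0.093). It was called at 0.38 without empty vector replicate 2 (adjusted p = 3.0e-06) and at 0.19 with no filter on low counts (adjusted p = 0.049). POLA1 (0.06, SE 0.08) and POLE (0.06, SE 0.07), the catalytic subunits of polymerases alpha and epsilon, were not called, nor was POLE2 (-0.03, SE 0.14), and the groups overlapped for all 3.

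Of the 9 genes for the clamp, its loader, single-strand binding and strand joining, PCNA, RPA2 and LIG1 rose and none fell. PCNA (ENSG00000132646, chromosome 20, 5114953 to 5126626, minus strand), the clamp that holds polymerases on DNA, had 319.1 and 330.7 CPM in SAMD9 libraries, against 224.5 and 251.8 CPM in empty vector libraries. Its log2 fold change was 0.45 (SE 0.06, edgeR adjusted p = 7.5e-06), and it had the highest level per kilobase of the 40 genes, 221 with SAMD9 and 162 with empty vector in CPM per kilobase. RPA2, a subunit of the single-strand binding protein RPA, had 36.5 and 35.7 CPM with SAMD9 and 28.4 and 30.7 CPM with empty vector (0.29, SE 0.09, edgeR adjusted p = 0.024). LIG1, the ligase that joins Okazaki fragments, had 109.7 and 106.5 CPM with SAMD9 and 90.9 and 98.4 CPM with empty vector (0.19, SE 0.07, edgeR adjusted p = 0.043). The LIG1 call held under 2 of 9 alternatives and the RPA2 call under 4, the others leaving adjusted p between 0.060 and 0.98 for LIG1.

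The 4 clamp loader genes, whose proteins open PCNA and close it around DNA, were not called. RFC2 had 77.6 and 74.8 CPM with SAMD9 and 63.8 and 69.8 CPM with empty vector (log2 fold change 0.19, SE 0.07, adjusted p = 0.065). RFC3 had 28.3 and 31.4 CPM with SAMD9 and 34.3 and 35.7 CPM with empty vector (-0.23, SE 0.10, adjusted p = 0.078), and RFC4 had 25.8 and 23.2 CPM with SAMD9 and 26.8 and 30.9 CPM with empty vector (-0.24, SE 0.11, adjusted p = 0.11). RFC3 and RFC4 were called lower under total-count scaling (adjusted p = 0.0012 and 0.0030), RFC4 also without empty vector replicate 1 (0.027), and RFC2 was called higher without empty vector replicate 2 (0.0097). RFC5 had a log2 fold change of 0.01 (SE 0.08, 95% interval -0.17 to 0.18). RPA1, the large RPA subunit, had one of -0.09 (SE 0.07, -0.24 to 0.06), called lower under total-count scaling (-0.28, adjusted p = 0.0041), and FEN1, the flap nuclease that trims Okazaki fragments, one of 0.05 (SE 0.07, -0.10 to 0.21).

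Both fork protection genes rose. CLSPN (ENSG00000092853, chromosome 1, 35720218 to 35769967, minus strand), which encodes claspin, an adaptor that brings the checkpoint kinase CHK1 to stalled forks, had 62.4 and 74.5 CPM in SAMD9 libraries, against 45.8 and 52.0 CPM in empty vector libraries (log2 fold change 0.48, SE 0.09, edgeR adjusted p = 0.00026). TIMELESS, its partner in the fork protection complex and the more abundant gene per kilobase, had 171.1 and 178.5 CPM with SAMD9 and 147.4 and 156.0 CPM with empty vector (0.20, SE 0.06, edgeR adjusted p = 0.019). SAMD9 libraries were above empty vector libraries for each gene, but for CLSPN the gap between groups was smaller than the gap between the SAMD9 libraries. The TIMELESS call ended without SAMD9 replicate 1 (adjusted p = 0.069), without SAMD9 replicate 2 (0.22) and under total-count scaling (0.88).

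None of the 3 nucleotide supply genes was called. RRM2, the S phase subunit of ribonucleotide reductase, had 301.2 and 308.7 CPM with SAMD9 and 299.7 and 316.9 CPM with empty vector (log2 fold change -0.02, SE 0.06, 95% interval -0.14 to 0.10). RRM1, its large catalytic subunit, had 145.0 and 138.2 CPM with SAMD9 and 153.3 and 159.6 CPM with empty vector, without overlap (-0.14, SE 0.06, adjusted p = 0.10), and was called lower without empty vector replicate 1 (adjusted p = 0.044). TYMS, which makes thymidylate, had a log2 fold change of -0.02 (SE 0.08, -0.18 to 0.15), and 465 of its exonic bases lie in ENOSF1 on the opposite strand. All 3 were called lower under total-count scaling, at -0.33 for RRM1, -0.20 for RRM2 and -0.21 for TYMS. The ratio of RRM2 to RRM1 counts per kilobase was 1.82 ± 0.0936 with SAMD9 and 1.66 ± 0.0181 with empty vector (SD, n = 2). The groups did not overlap, but the gap between them was smaller than the gap between the SAMD9 libraries.

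**Figure D4:**
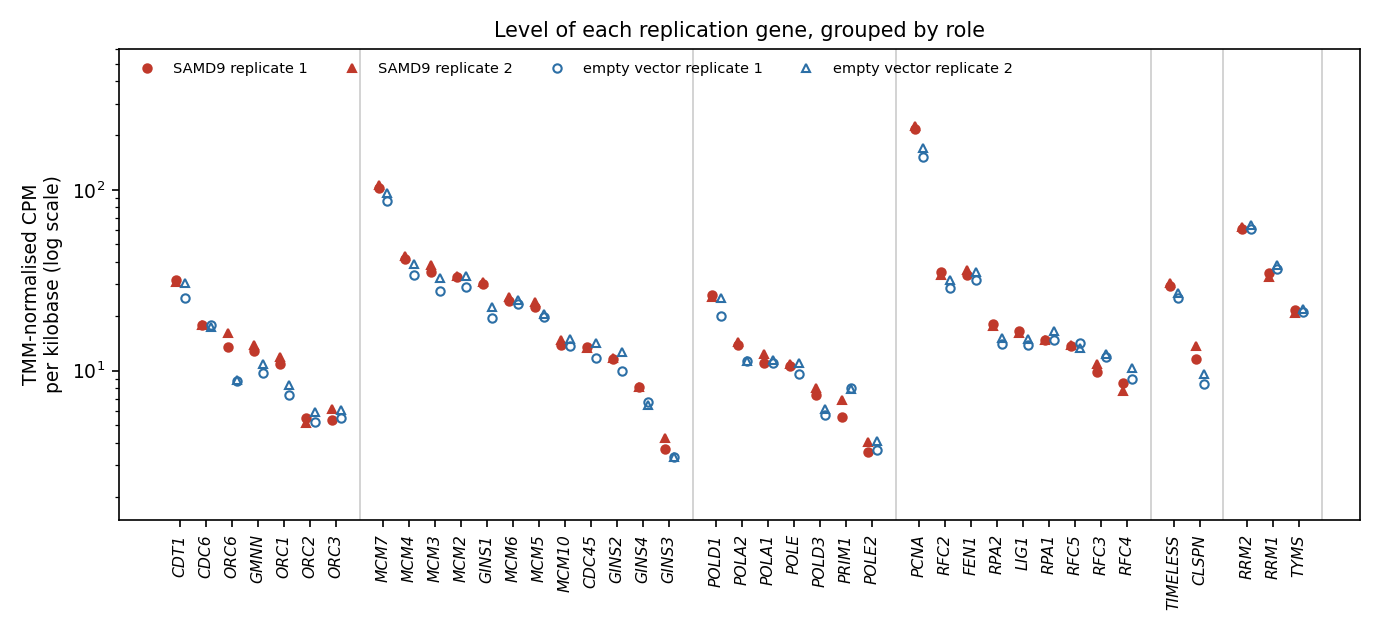
Level of each of the 40 replication genes in TMM-normalised CPM per kilobase (y axis, log scale) in the SAMD9 libraries (red) and the empty vector libraries (blue, open), grouped by role from licensing (left) to nucleotide supply (right). PCNA is highest at 221 with SAMD9 and 162 with empty vector, and GINS3 and POLE2 are lowest, between 3 and 5.

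Levels spanned a wide range within the machinery. After PCNA, the most abundant transcripts were MCM7, at 105 CPM per kilobase with SAMD9 and 91.1 with empty vector, and RRM2, at 61.5 with SAMD9 and 62.2 with empty vector. POLE2, an accessory subunit of polymerase epsilon, was lowest with SAMD9 at 3.78 (3.86 with empty vector), and GINS3 lowest with empty vector at 3.33 (3.96 with SAMD9). Of the 5 genes called under every setting, PCNA was the most abundant, and the others lay between 11.4 (ORC1) and 30.5 (GINS1) CPM per kilobase with SAMD9, against 7.80 and 21.1 with empty vector.

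Outside the 40 genes, the factors that fire licensed origins and guard forks included more falls than rises. Of 22 such genes tested, 8 fell and 2 rose (against 12.2% and 15.3% of all tested genes), with a median log2 fold change of -0.12. DBF4, the activating subunit of the CDC7 kinase that fires origins, had 25.7 and 21.5 CPM with SAMD9 and 39.9 and 39.0 CPM with empty vector (-0.74, SE 0.10, edgeR adjusted p = 5.5e-06). DBF4B, an alternative activator of the same kinase, had 89.2 and 87.5 CPM with SAMD9 and 48.2 and 48.3 CPM with empty vector (0.87, SE 0.07, edgeR adjusted p = 2.6e-09). CDC7 itself was not called (-0.20, SE 0.15), with 11.5 and 12.0 CPM against 11.4 and 15.5 CPM. For DBF4 and DBF4B the groups were well apart, in opposite directions.

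RAD9A, a subunit of the 9-1-1 checkpoint clamp, had 47.4 and 49.2 CPM with SAMD9 and 27.9 and 27.2 CPM with empty vector (0.81, SE 0.09, edgeR adjusted p = 1.8e-07), whereas RAD17, which loads that clamp, fell (-0.47, SE 0.12, adjusted p = 0.0051, and 0.12 without empty vector replicate 1). RAD9A shares 228 exonic bases with PPP1CA, and DBF4 shares 142 with SLC25A40, each on the opposite strand. TICRR, which helps load CDC45 (-0.40, SE 0.08), and ETAA1, an activator of the ATR kinase (-0.56, SE 0.12), also fell, and the other 4 falls lay between -0.43 and -0.24. Under total-count scaling 12 of the 22 were lower and the same 2 higher (against 28.5% and 9.96% of all tested genes). With a library left out, log2 fold changes ranged from 0.79 to 0.84 (RAD9A), -0.64 to -0.27 (RAD17), -0.51 to -0.26 (TICRR) and -0.64 to -0.47 (ETAA1).

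**Figure D5:**
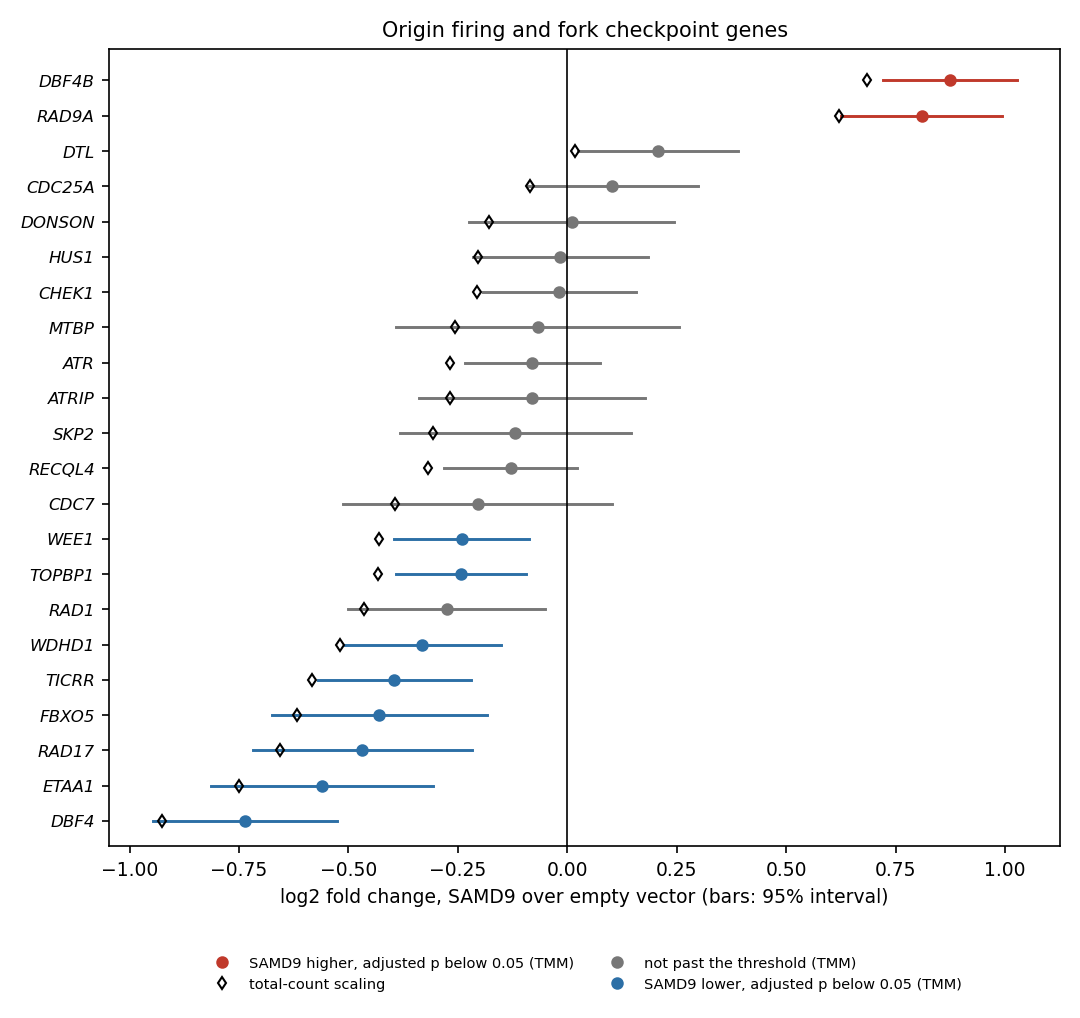
Log2 fold change of the 22 origin firing and fork checkpoint genes, SAMD9 over empty vector (x axis), with 95% intervals as bars, drawn as in the plot of the 40 replication genes. DBF4B (0.87) and RAD9A (0.81) stand apart on the right and 8 genes are called lower, down to DBF4 at -0.74.

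Among 17 further subunits of the complexes described above, 3 rose (17.6%, against 15.3% of all tested genes) and 1 fell (5.88%, against 12.2%), shares near or below those of all genes. POLE4, a small subunit of polymerase epsilon, rose by 0.45 on the log2 scale (SE 0.11, edgeR adjusted p = 0.0033). TIPIN, the obligate partner of TIMELESS, rose by 0.36 (SE 0.10, adjusted p = 0.0087) and PRIM2, the large primase subunit, by 0.33 (SE 0.11, adjusted p = 0.033). MCM8, which forms a separate helicase with MCM9, fell (-0.21, SE 0.07, adjusted p = 0.018). None of the 3 rises was called under total-count scaling, the TIPIN call also ended without SAMD9 replicate 2 (adjusted p = 0.096), the MCM8 call without either SAMD9 replicate (0.17 each), and the PRIM2 call with DESeq2 (0.12) and without SAMD9 replicate 2 (0.33), empty vector replicate 1 (0.064) or empty vector replicate 2 (0.054). Of 15 further nucleotide supply genes, 2 rose (13.3%, against 15.3% of all tested genes) and none fell. They were TK1, the thymidine kinase of S phase (0.33, SE 0.07, edgeR adjusted p = 0.0011), and SAMHD1, an interferon-inducible enzyme that breaks down dNTPs, with 313.8 and 349.5 CPM with SAMD9 and 21.2 and 23.4 CPM with empty vector (3.89, SE 0.08). The TK1 call ended under total-count scaling (adjusted p = 0.12), and its log2 fold change ranged from 0.22 to 0.46 with a library left out.

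Of 18 genes tested for the E2F, DP and pocket protein families, the transcription factors of S phase genes, and their MuvB partners, LIN52 rose (0.92, SE 0.13, edgeR adjusted p = 9.2e-06), and LIN54 (-0.39, SE 0.10, adjusted p = 0.0049) and the repressor E2F8 (-0.48, SE 0.13, adjusted p = 0.0073) fell, LIN52 and LIN54 being subunits of the MuvB core. These calls made up 5.56% higher and 11.1% lower, against 15.3% and 12.2% of all tested genes. Neither fall held without SAMD9 replicate 2 (adjusted p = 0.072 and 0.062), nor E2F8's without empty vector replicate 2 (0.054). Of 14 genes that copy chromatin behind the fork, CHAF1B, a subunit of the histone chaperone CAF-1 (0.61, SE 0.09, edgeR adjusted p = 1.7e-05), and SLBP, which binds histone mRNA (0.34, SE 0.08, adjusted p = 0.0028), rose. ASF1A, a histone chaperone (-0.61, SE 0.13, adjusted p = 0.0012), and CDCA7 (-0.27, SE 0.09, adjusted p = 0.04) fell. Calls in each direction made up 14.3% of these genes, near the 15.3% higher and 12.2% lower of all tested genes. CHAF1B shares 89 exonic bases with MORC3 on the same strand, which had 1906 and 1446 counts with SAMD9 and 934 and 883 with empty vector. The SLBP call ended under total-count scaling (adjusted p = 0.14). The CDCA7 call ended with DESeq2 (adjusted p = 0.12) and without SAMD9 replicate 2 or empty vector replicate 2. Its log2 fold change ranged from -0.37 to -0.17 with a library left out.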

How the data were processed

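RNA-seq libraries of A549 cells (2 SAMD9, 2 empty vector, grouped and numbered by their titles) were compared. Since nothing states that replicates were separate cultures, p-values measure only a spread between samples that may be technical. The authors deposited a raw count for every gene. The CPM values deposited beside it equal the count scaled to the library total, and the RPKM values deposited by the authors equal that CPM per kilobase of listed length. Neither was tested. Per the submitters' processing notes, STAR 2.5.1a and featureCounts 1.4.6-p5 were used with GRCh38, while no annotation or strand setting is stated. Among counts from 1 to 20, 72.9% were even, against 49.7% above 1000, and the reason was not tested.

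Symbols came from a gene name table (54836 of 58812 IDs) or GENCODE release 29. Genes were filtered with filterByExpr (minimum count 10, minimum total 15) and tested with edgeR 4.0.16 (R 4.3.3) after TMM scaling (factors 0.941 and 0.932 with SAMD9, 1.07 and 1.07 with empty vector), with no covariate. The procedure was run on simulated data with few changed genes, as many up as down, which cannot test the choice of scaling. SE was taken from the fold change and the F statistic, and totals per library are given above. Replicates differed beyond sampling noise (chi-square per degree of freedom 5.00 with SAMD9, 9.35 with empty vector). Alternatives were total-count scaling, DESeq2 size factors, DESeq2 1.42.0, no filter, a replicate block and each library left out.

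The genes and lists were chosen with earlier results of these data known. The naming rule covers all 40 genes, SAMD9, and up to 4 called genes per direction in each further list. CDC7 and the marker genes were named outside it. Values per library are given for called genes and, per role, for the gene with the lowest p and the most abundant one, and for some others after their values were seen.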

Additional observations from a re-analysis of the deposited data

How the results depend on the processing

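The choice of scaling and of libraries moved the calls and the size of the differences, and the cause was not tested. Under total-count scaling 1974 of all tested genes were higher and 5653 lower, against 3038 and 2420 with TMM. In that setting the replication genes had 5 rises and 10 falls with a median of -0.058, the further subunits 0 and 7, the further nucleotide supply genes 1 and 6, the E2F, DP and pocket proteins 9 falls and the chromatin genes 1 and 6. Log2 fold changes turned negative there for CDC6 (-0.17), CDT1 (-0.016), MCM2 (-0.10), MCM6 (-0.13), CDC45 (-0.14), GINS2 (-0.14), POLA1 (-0.13), POLE (-0.13), RFC5 (-0.18) and FEN1 (-0.14). DESeq2 called 14 replication genes higher, losing RPA2 and LIG1, and 0 lower, losing PRIM1, and 1 chromatin gene lower. Over all genes it called 2456 higher and 1641 lower. DESeq2 size factors within edgeR kept all 16 rises, and dropping the filter kept 15 of them and added POLD1. Over all genes, 3053 and 3000 were higher in these settings.

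The replicate numbers are not stated to pair the libraries, and the deviations of same-numbered libraries had a correlation of 0.00 over 19814 genes. With the replicate number as a block, 15 replication genes were higher, as LIG1 was lost, and 1 chromatin gene was lower, as CDCA7 was lost. Over all tested genes, 2914 were higher and 2330 lower with the block.

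When a library was left out, the lone library of its group was assumed to vary like the others. Rises among replication genes then ranged from 6 to 21, falls from 0 to 2 and their median from 0.039 to 0.23. Rises ranged from 1 to 4 among further subunits, from 2 to 5 among nucleotide supply genes and from 2 to 5 among chromatin genes. Falls ranged from 0 to 3 among further subunits, from 0 to 1 among nucleotide supply genes, from 0 to 2 among E2F, DP and pocket proteins, from 1 to 2 among chromatin genes and from 1466 to 2279 among all tested genes. Signs turned for 13 genes that were not called, with ranges of -0.15 to 0.034 (ORC2), -0.12 to 0.091 (ORC3), -0.00999 to 0.20 (MCM2), -0.070 to 0.070 (MCM10), -0.084 to 0.19 (CDC45), -0.12 to 0.24 (GINS2), -0.019 to 0.15 (POLA1), -0.039 to 0.17 (POLE), -0.12 to 0.065 (POLE2), -0.031 to 0.051 (RFC5), -0.014 to 0.13 (FEN1), -0.054 to 0.029 (RRM2) and -0.050 to 0.020 (TYMS). Apart from the cell type markers, no called gene among the named ones changed sign under any alternative. With a library left out, this largely follows from the groups not overlapping for any of these genes. Under total-count scaling it follows from a shift smaller than every rise. The kept signs are thus no separate support. The marker ALDH1A1, called higher with TMM (0.14), stood at -0.048 under total-count scaling.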

Other observations

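Ratios between partner genes within a library do not depend on scaling, and those given here were chosen after the values were seen, with no test. The ratio of DBF4B to DBF4 counts per kilobase was 2.23 and 2.61 with SAMD9, against 0.775 and 0.794 with empty vector, so that DBF4B was the more abundant kinase activator transcript in SAMD9 libraries and DBF4 in empty vector libraries. The ratio of PRIM1 to PRIM2, the small and large primase subunits, was 1.25 and 1.37 with SAMD9, against 2.12 and 2.10 with empty vector. ORC6 to ORC2 stood at 2.48 and 3.17 with SAMD9, against 1.68 and 1.501 with empty vector. Within the clamp loader, RFC2 to RFC4 stood at 4.08 and 4.36 with SAMD9, against 3.22 and 3.06 with empty vector. In each of these 4 ratios the groups did not overlap, and the difference between group means was larger than the gap between replicates. As the pairs were picked from values already seen, this separation came with the choice, and no conclusion is drawn from it. Among all tested genes taken singly, the groups did not overlap for 31.1% with SAMD9 higher and 30.9% with SAMD9 lower.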
